A study of Mus musculus with 4 samples.

Results

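The genes described here encode the transport and metabolic machinery of the proximal tubule, the first segment of the nephron after the glomerulus. They were chosen by symbol, as 33 genes in 6 groups by role. Every probe set whose only gene symbol in the platform table was 1 of these was taken. Probe sets were found for 32 of the 33, 59 probe sets in all, out of 45037 probe sets for 18193 named genes. No probe set had Ggt1 as its only symbol in the table used, so this gene was not analysed here.

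The samples were structures cut by laser from frozen sections of mouse kidney from fetuses at E15.5, where E counts embryonic days (Theiler stage 23), all from wild-type animals of the outbred CD-1 stock whose sex was not known. The cortical collecting duct was represented by 1 array (numbered 3), and the anlage of the loop of Henle by 3 arrays (numbered 1 to 3). The titles of those 3 begin with DT, which no label spells out, and the structure is named here after the source field. Every array held RNA from a pool of about 50 sections of 5 kidneys, amplified over 2 rounds. Neither captured structure is itself a proximal tubule, nothing in the labels says whether the pools came from separate litters, and p-values measure only the spread between these arrays, which may be technical.

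In the mature kidney the proximal tubule recovers most of what the glomerulus filters. The receptors megalin and cubilin take up filtered proteins and vitamins by endocytosis. Transporters of the apical brush border, many of them coupled to sodium, take up glucose, amino acids and phosphate. Other transporters on the basolateral side pass glucose and amino acids to the blood. Its cells also make glucose, and peptidases on the brush border cut filtered peptides into amino acids. In the fetal kidney these genes come on as nephrons mature, and the loop of Henle arises from the nephron epithelium beside the proximal segment, whereas the collecting duct arises from the ureteric bud.

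Levels are given as log2(signal + 109.6) after quantile normalization, a scale whose floor is 6.78. A gene was tested if its mean over the 4 arrays reached 8.416. This level marks dim probe sets and is not a detection call. Differences are the collecting duct value minus the mean of the 3 anlage values. They are on the same scale, which understates the change of a dim gene. The standard errors (SE) come from a limma fit across 12642 genes. Markers of both structures followed the labels, but the lists were chosen with earlier results of these data known, so this is no independent check. All 12 tested markers of the collecting duct were higher in it than in the anlage mean. In 10 of them it lay above all 3 anlage arrays (17.3% of all tested genes), while Krt19 and Calb1 overlapped. The list mean was 12.52 there against 9.72, 10.81 and 9.77 for anlage arrays 1, 2 and 3. For all 12 loop of Henle markers the collecting duct lay below all 3 anlage arrays (24.3% of all tested genes). Their list means were 8.74 for the collecting duct and 12.30, 11.12 and 12.11 in the anlage arrays. On either list anlage array 2 was the anlage array closest to the collecting duct. RNA shortening raises the ratio of the 3' to the 5' control signal of Gapdh, which was 12.05 in the collecting duct and 10.25, 54.08 and 26.02 in anlage arrays 1, 2 and 3. Its part in the results below was not tested.

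Most of these genes read lower for the collecting duct than for the anlage, by a small amount. Of the 32 genes with a probe set, 27 had a lower collecting duct value than the anlage mean, against 55.9% of all 18193 genes. In 15 of the 32 the collecting duct value lay below all 3 anlage arrays, against 25.2% of all genes, and in 2 it lay above all 3, against 18.2%. Without anlage array 1 it lay below both remaining arrays in 16 of 28 genes that reached the filter, against 46.6% of all genes. With arrays scaled to a common median 24 of 27 were lower, against 67.8% of all genes. The median difference of the 32 was −0.47, beside −0.07 for all genes. The farthest below were the amino acid transporters Slc7a7 and Slc7a9 and the cubilin partner Amn, and the farthest above were Slc7a8, another amino acid transporter, and Ass1, an enzyme of arginine synthesis. In these bulk pools, fewer cells of a type and less RNA per cell cannot be told apart.

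No gene of the group passed the test. The 27 genes that reached the filter each had an adjusted p of 0.9999 (limma, Benjamini-Hochberg over all 12642 genes), and over all genes 0 were called lower and 0 higher (background 0 and 0 percent). At an unadjusted p under 0.05 there were 5 of the 27, or 18.5%, against 431 genes or 3.41% overall. Of these 5, 3 were lower (background 2.23%) and 2 higher (background 1.18%). The count was 2 of 27 without anlage array 3, against 1.52% of all genes, and 8 of 28 without anlage array 1, against 10.9%. Differences of this size could hardly reach the threshold with so few arrays, so the absence of calls does not show that the levels were alike. Of the 5 genes, Slc7a8 and Ass1 reached the filter only through the collecting duct, with anlage means of 8.25 and 8.13. Slc7a7 reached it only through the anlage, with 7.31 in the collecting duct. The share of 18.5% therefore depends in part on the filter. It was smaller with no filter or a stricter one, and still above that of all genes. With 1 array against 3, the smallest p of an exact permutation test is 0.25.

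**Figure D1:**
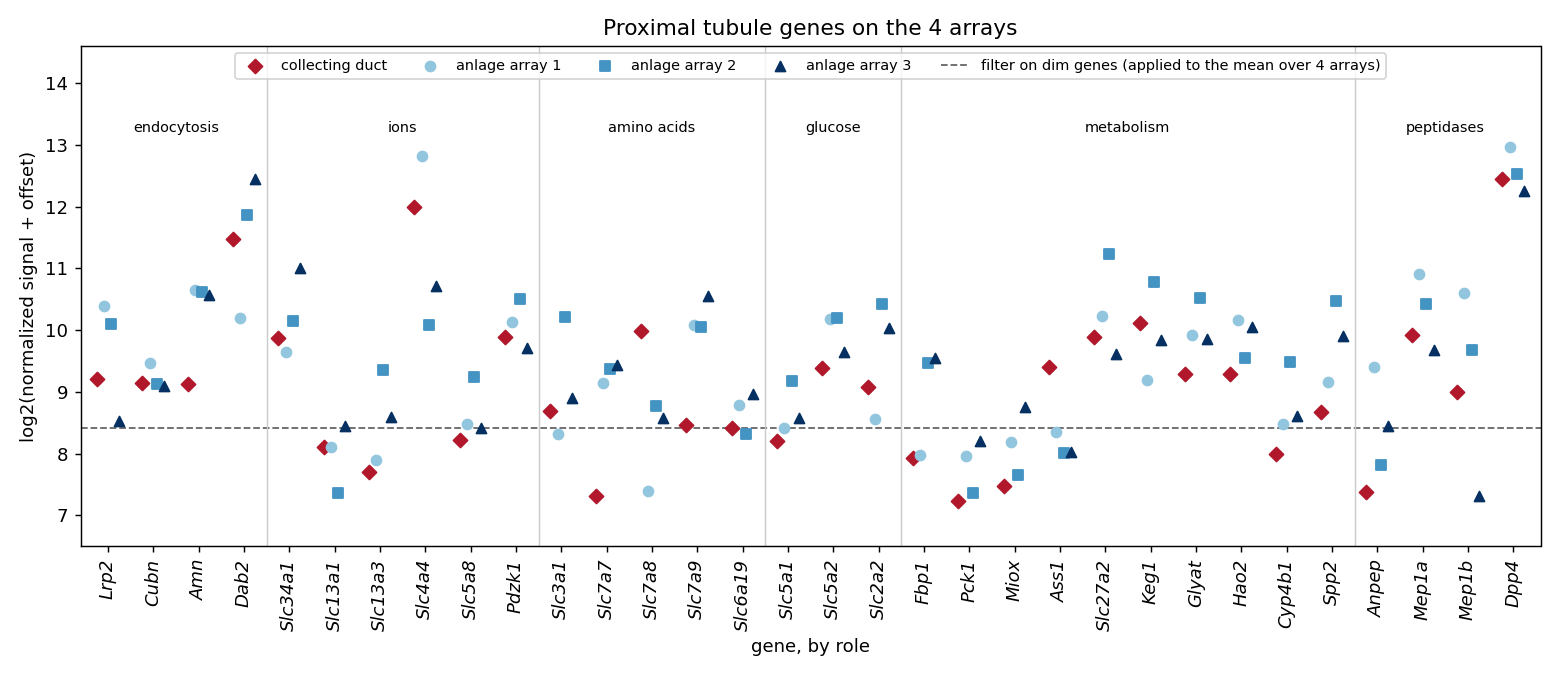
Level of each of the 32 genes on each array, as log2(normalized signal + offset), with genes in order of role on the horizontal axis and 1 point per array. The collecting duct lies below all 3 anlage arrays in 15 genes (for example Amn, Slc7a7 and Slc7a9) and above all 3 in Slc7a8 and Ass1. The dashed line is the filter level of 8.416, applied to the mean over the 4 arrays.

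**Figure D2:**
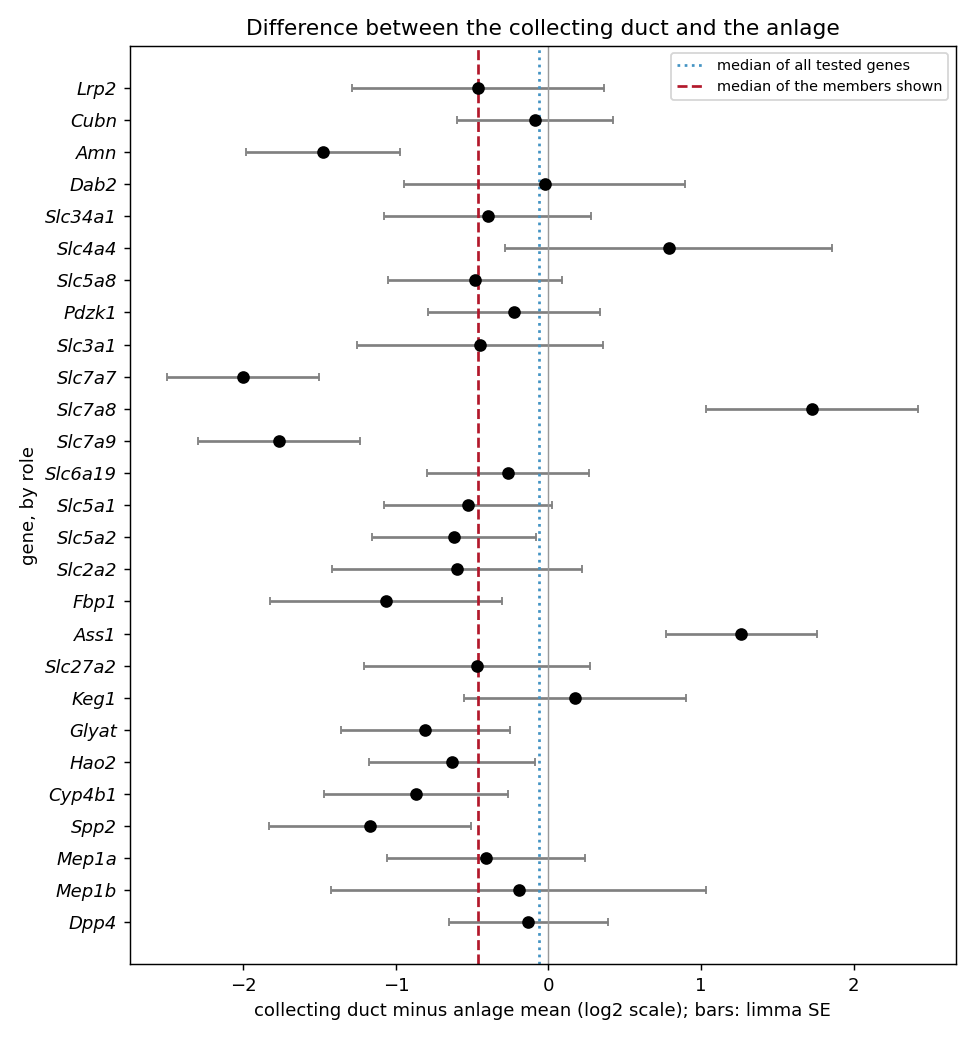
Collecting duct minus anlage mean on the log2 scale for the 27 tested genes, with bars for the limma standard error (1 collecting duct array, 3 anlage arrays). Most points lie left of 0, with a median of −0.46 (red) beside −0.06 for all tested genes (blue), and Slc7a7 and Slc7a8 lie at the 2 ends.

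To show the DNA beside these differences, a stretch of 120 bases before an annotated transcript start is given for Amn and for the 3 transporters Slc7a7, Slc7a9 and Slc7a8. Where a gene had several starts, the stretch was picked from those that held a motif named below, if any did. The sequences are RefSeq's, of mouse assembly GRCm38.p6, and read from 5′ to 3′ on the strand of the gene. Capitals mark GTTAAT, part of the consensus of the factor HNF1, or AGGTCA, the core motif of nuclear receptors such as HNF4A, on either strand. HNF1 and HNF4A are transcription factors known from the proximal tubule.
Amn, chr12:111270976-111271095, plus strand: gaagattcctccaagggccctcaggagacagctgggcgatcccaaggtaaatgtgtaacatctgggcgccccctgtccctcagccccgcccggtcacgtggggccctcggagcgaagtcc
Slc7a7, chr14:54409473-54409592, minus strand: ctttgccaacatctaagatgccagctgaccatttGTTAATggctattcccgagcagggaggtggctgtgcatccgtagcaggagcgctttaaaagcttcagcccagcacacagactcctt
Slc7a9, chr7:35448972-35449091, plus strand: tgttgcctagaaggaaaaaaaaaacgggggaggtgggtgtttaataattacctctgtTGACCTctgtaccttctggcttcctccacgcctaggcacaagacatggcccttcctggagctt
Slc7a8, chr14:54781887-54782006, minus strand: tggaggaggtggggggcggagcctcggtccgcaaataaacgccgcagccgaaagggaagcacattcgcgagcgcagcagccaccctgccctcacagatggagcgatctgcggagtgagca
The Slc7a7 stretch, before 1 of its 5 annotated starts, holds GTTAAT from 86 to 81 bases before that start. The Slc7a9 stretch, before the more upstream of its 2 starts, holds AGGTCA on the other strand from 63 to 58 bases before it. Neither motif occurs in the stretches of Amn and Slc7a8, which had only 1 annotated start each and so no choice of stretch. Each stretch holds at most 1 match, so no matches overlap. Over windows from 250 bases before to 50 bases after a start, GTTAAT was found in 7 of 41 windows of 30 of the genes and AGGTCA in 10, that is 17.1% and 24.4%. The shares over all 32851 windows were 7.10% and 16.3%. These matches describe letters only and were not tied to the differences in level.

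The first group holds the endocytic receptors and their adaptor. All 4 genes were tested, and only for Amn did the collecting duct lie outside the range of the anlage. Over all tested genes it lay below that range in 24.3% and above it in 17.3%, so lying outside was common. Amn encodes amnionless, which anchors cubilin in the membrane and carries it to the cell surface. Its normalized signal was 451.9 in the collecting duct and 1501.5, 1460.8 and 1410.6 in anlage arrays 1, 2 and 3. On the log2 scale this was 9.13 against 10.65, 10.62 and 10.57, a difference of −1.48 ± 0.50 (SE; unadjusted p = 0.0259, adjusted p = 0.9999, limma). The signal itself, without the offset, was 3.23-fold lower than the anlage mean. The 3 anlage arrays lay close together, with an SD of 0.04, and the groups did not overlap.

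The receptors themselves differed less. Lrp2 encodes megalin, the large receptor that works together with cubilin. It read 9.21 in the collecting duct and 10.39, 10.09 and 8.53 in the anlage arrays, a difference of −0.46 ± 0.83 (SE). The groups overlapped, since anlage array 3 was the lowest of the 4, and the difference was −0.12, −0.22 and −1.03 without anlage array 1, 2 and 3 in turn. The 3 probe sets of Lrp2 ranged from −0.46 to 0.57, and averaged they gave −0.0045. Cubn, the gene of cubilin, stood at 9.14 in the collecting duct and at 9.47, 9.12 and 9.10 in the anlage, a difference of −0.09 ± 0.51. The probe set used for Cubn is of a kind that may also bind transcripts of other genes.

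Dab2 encodes a clathrin adaptor that binds the tail of megalin and is also expressed in many other cell types. With its brightest probe set it read 11.48 in the collecting duct and 10.20, 11.86 and 12.45 in the anlage, a difference of −0.02 ± 0.92 (SE). Another of its 4 probe sets gave another picture, at 9.79 in the collecting duct against 10.49, 12.48 and 12.43 in the anlage arrays. There the difference was −2.01 and the groups did not overlap. The remaining probe sets of Dab2 differed by 0.38 and 0.95. In both of the brighter probe sets anlage array 1 was the lowest of the anlage arrays. The stromal list had means of 13.15 in the collecting duct and 13.10, 13.05 and 14.24 in the anlage arrays, and the macrophage list 8.81 against 9.33, 9.65 and 9.66. Their part in the Dab2 values was not tested.

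The second group holds 6 genes for ion, phosphate and carboxylate transport. Of these 4 were tested, and Slc4a4 was the 1 with a higher value in the collecting duct. Slc34a1 encodes the main sodium-phosphate cotransporter of the brush border. It stood at 9.87 in the collecting duct and at 9.65, 10.15 and 11.01 in the anlage, a difference of −0.40 ± 0.68 (SE), within the anlage range. Without anlage array 1 it was −0.77, and without array 3 it was −0.028. Pdzk1, a scaffold that binds this and other brush border transporters, stood at 9.89 in the collecting duct against 10.12, 10.50 and 9.71 in the anlage (−0.23 ± 0.57, and −0.028 without anlage array 2 or −0.42 without array 3). Slc5a8, a sodium-coupled carrier of lactate, was at 8.23 in the collecting duct, just below the anlage values of 8.47, 9.24 and 8.41 (−0.48 ± 0.57).

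Slc4a4 encodes the electrogenic sodium-bicarbonate cotransporter that carries bicarbonate out across the basolateral membrane. Its brightest probe set read 11.99 in the collecting duct and 12.81, 10.09 and 10.72 in the anlage, a difference of 0.79 ± 1.07 (SE). The collecting duct value lay inside the wide anlage range, and the difference was 1.70 without anlage array 1, 0.21 without array 2 and 0.54 without array 3. Over its 5 probe sets the difference ran from −1.11 to 0.79. The sulfate transporter Slc13a1 and the dicarboxylate transporter Slc13a3 did not reach the filter. Slc13a1 had log2 values of 8.11 in the collecting duct and 8.10, 7.35 and 8.45 in the anlage. Those of Slc13a3 were 7.71 in the collecting duct and 7.89, 9.36 and 8.59 in the anlage. All 4 of its probe sets were dim and had a collecting duct value below the anlage mean. Only in the probe set used did the collecting duct lie below every anlage array.

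The amino acid transporters held the widest spread in both directions, from −2.00 for Slc7a7 to 1.73 for Slc7a8. Slc7a7 encodes y+LAT1, the light chain that, bound to the heavy chain Slc3a2, moves cationic amino acids out across the basolateral membrane. Its signal was 49.1 in the collecting duct and 453.9, 549.9 and 584.0 in anlage arrays 1, 2 and 3. On the log2 scale this was 7.31 against 9.14, 9.37 and 9.44, a difference of −2.00 ± 0.50 (SE; unadjusted p = 0.0067, adjusted p = 0.9999, limma). The signal itself was 10.8-fold lower than the anlage mean, but the collecting duct signal was smaller than the offset, and its error at this level is not known. The anlage values were close together and the collecting duct value lay near the floor of the scale, so the size of the difference depends on the offset, from −2.85 with a lower one to −1.10 with a higher one. The second probe set of Slc7a7 was dim on all arrays (7.88 in the collecting duct and 7.85, 6.95 and 8.16 in the anlage) and differed by 0.22.

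Slc7a9 encodes the light chain of the apical transporter for cystine and basic amino acids, and Slc3a1 encodes its heavy chain. In people, variants of either gene are known to cause cystinuria. Slc7a9 had a signal of 242.3 in the collecting duct and 978.4, 947.4 and 1384.6 in the anlage arrays. Its log2 values were 8.46 against 10.09, 10.05 and 10.55, a difference of −1.77 ± 0.53 (SE; unadjusted p = 0.0158, adjusted p = 0.9999, limma), with no overlap. The signal itself was 4.55-fold lower than the anlage mean. Its partner Slc3a1 did not show the same separation. It stood at 8.69 in the collecting duct and at 8.32, 10.21 and 8.90 in the anlage (−0.45 ± 0.81), with anlage array 1 below the collecting duct.

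Slc7a8 went the other way. It encodes LAT2, a basolateral exchanger of neutral amino acids that, like y+LAT1, pairs with Slc3a2. Its signal was 900.3 in the collecting duct and 58.5, 329.5 and 273.5 in the anlage arrays. The log2 values were 9.98 against 7.39, 8.78 and 8.58, a difference of 1.73 ± 0.69 (SE; unadjusted p = 0.0467, adjusted p = 0.9999, limma). The signal itself was 4.08-fold higher than the anlage mean, with anlage array 1 below the offset. The groups did not overlap, anlage array 1 was the lowest, and with other offsets the difference ran from 1.14 to 2.14. Slc7a7 and Slc7a8 both lie on chromosome 14, with 15 protein-coding genes between them in the RefSeq table. Slc6a19, the apical neutral amino acid transporter B0AT1, stood at 8.42 in the collecting duct against 8.79, 8.31 and 8.96 in the anlage (−0.27 ± 0.53, and −0.13 without anlage array 3) and overlapped.

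Because y+LAT1 is also known from macrophages, their markers are given beside Slc7a7. All 5 tested macrophage and leukocyte markers had a lower collecting duct value, beside 54.9% of all tested genes. Their list means were 8.81 in the collecting duct and 9.33, 9.65 and 9.66 in anlage arrays 1, 2 and 3. Of the defining markers, Ptprc was below the filter and overlapped, at 8.39 in the collecting duct and 7.60, 9.82 and 6.95 in the anlage, Csf1r stood at 10.68 in the collecting duct and at 11.99, 11.67 and 11.04 in the anlage, and Tyrobp at 7.62 against 7.54, 9.27 and 9.43. Their part in the Slc7a7 difference was not tested.

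The 3 genes of glucose uptake had similar small differences, all with a lower value in the collecting duct, and all 3 were highest in anlage array 2. Slc5a2 encodes SGLT2, the apical transporter that recovers most filtered glucose, and stood at 9.38 in the collecting duct and at 10.17, 10.19 and 9.65 in the anlage (−0.62 ± 0.54, SE). The probe set used for it may also bind transcripts of other genes. Slc5a1 encodes SGLT1, the high-affinity transporter of the later proximal tubule, and stood at 8.20 in the collecting duct against 8.41, 9.18 and 8.57 in the anlage (−0.53 ± 0.55). In both genes the collecting duct lay below all 3 anlage arrays, and the gap to the nearest of them was smaller than the anlage SD (0.31 for Slc5a2 and 0.41 for Slc5a1). Slc2a2 encodes GLUT2, through which glucose leaves the cell, and stood at 9.07 in the collecting duct and at 8.56, 10.42 and 10.03 in the anlage (−0.60 ± 0.82). It overlapped, since anlage array 1 lay below the collecting duct, and the difference was −1.25 without array 1 and −0.20 without array 2. Being highest in anlage array 2 was common, at 39.0% of all tested genes.

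Of the 10 genes of metabolism and secretion 8 were tested, 6 with a lower and 2 with a higher value in the collecting duct. Ass1 encodes argininosuccinate synthase, the step by which the proximal tubule makes arginine from citrulline. Its signal was 563.9 in the collecting duct and 217.9, 147.8 and 152.5 in the anlage arrays. On the log2 scale it stood at 9.40 against 8.36, 8.01 and 8.03, a difference of 1.26 ± 0.50 (SE; unadjusted p = 0.0433, adjusted p = 0.9999, limma). The signal itself was 3.26-fold higher than the anlage mean. The groups did not overlap, all 3 anlage values were below the filter level, and with other offsets the difference ran from 0.79 to 1.58. Asl, which encodes the next enzyme of that pathway, stood at 10.11 in the collecting duct and at 10.26, 10.24 and 10.17 in the anlage (−0.12 ± 0.50).

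Genes of glucose and energy metabolism had lower or overlapping values. Fbp1, a gluconeogenic phosphatase, stood at 7.94 in the collecting duct and at 7.99, 9.47 and 9.54 in the anlage (−1.07 ± 0.76, SE). The collecting duct lay below all 3, but anlage array 1 was nearly as low, and without it the difference was −1.63. Pck1, the rate-limiting enzyme of gluconeogenesis, did not reach the filter, at 7.23 in the collecting duct and 7.96, 7.36 and 8.20 in the anlage. Miox, which breaks down inositol in the proximal tubule, did not reach it either, at 7.47 in the collecting duct and 8.19, 7.65 and 8.76 in the anlage. For both, the collecting duct was the lowest of the 4 arrays in the probe set used. All 3 probe sets of Pck1 were dim, and in another of them anlage array 1 (6.89) lay below the collecting duct (7.01). Slc27a2, a fatty acid transporter and acyl-CoA synthetase, stood at 9.89 in the collecting duct against 10.23, 11.23 and 9.61 in the anlage (−0.47 ± 0.74). That difference was −0.026 without anlage array 2 and −0.83 without array 3.

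The other metabolic genes act on small organic acids and drugs. Glyat, which joins glycine to acyl groups for excretion, stood at 9.29 in the collecting duct and at 9.92, 10.51 and 9.86 in the anlage (−0.81 ± 0.56, SE). Its 3 probe sets all differed in this direction, from −0.96 to −0.73, though the one at −0.73 was dim. The probe set used for Glyat may also bind transcripts of other genes. Keg1, a related gene on chromosome 19 with 2 protein-coding genes between it and Glyat, stood at 10.11 in the collecting duct against 9.19, 10.78 and 9.83 in the anlage (0.17 ± 0.73) and overlapped. Hao2, a peroxisomal hydroxyacid oxidase, stood at 9.29 in the collecting duct and at 10.16, 9.55 and 10.05 in the anlage (−0.63 ± 0.54). The collecting duct was below all 3 anlage arrays for Glyat and Hao2. The same held for Cyp4b1, a cytochrome P450, at 7.99 against 8.48, 9.49 and 8.60 (−0.87 ± 0.60), and for Spp2, a secreted phosphoprotein, at 8.67 against 9.16, 10.47 and 9.90 (−1.17 ± 0.66).

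The 3 tested peptidases of the brush border overlapped between the structures and differed most among the anlage arrays. Dpp4, which removes dipeptides from peptide ends, stood at 12.45 in the collecting duct and at 12.97, 12.53 and 12.25 in the anlage (−0.13 ± 0.52, SE). Mep1a, the alpha subunit of the metalloprotease meprin, stood at 9.92 in the collecting duct against 10.91, 10.41 and 9.67 in the anlage (−0.41 ± 0.65, and −0.13 without anlage array 1 or −0.73 without array 3). Mep1b, the beta subunit, stood at 9.00 in the collecting duct against 10.60, 9.68 and 7.31 in the anlage (−0.20 ± 1.23). Each had the same order, highest in anlage array 1, then array 2, then the collecting duct, then array 3, and Lrp2 shared it. That order held in 4 of the 27 tested genes and in 2.03% of all tested genes, was noticed after the values were seen, and was not seen in the other probe sets of Lrp2, Mep1a and Dpp4. Anpep, aminopeptidase N, did not reach the filter, at 7.38 in the collecting duct and 9.40, 7.82 and 8.45 in the anlage, with the collecting duct lowest.

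The choice of probe set mattered for several of these genes. Of the 32, 15 had more than 1 probe set, and in 6 of those the probe sets disagreed in sign (Dab2, Dpp4, Lrp2, Slc13a1, Slc4a4 and Slc7a7). For Dpp4 the 4 probe sets ran from −0.55 to 0.59. For Amn, Slc7a8, Slc7a9 and Ass1 only 1 probe set each was taken, so no second reading was at hand among the probe sets with 1 symbol.

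**Figure D3:**
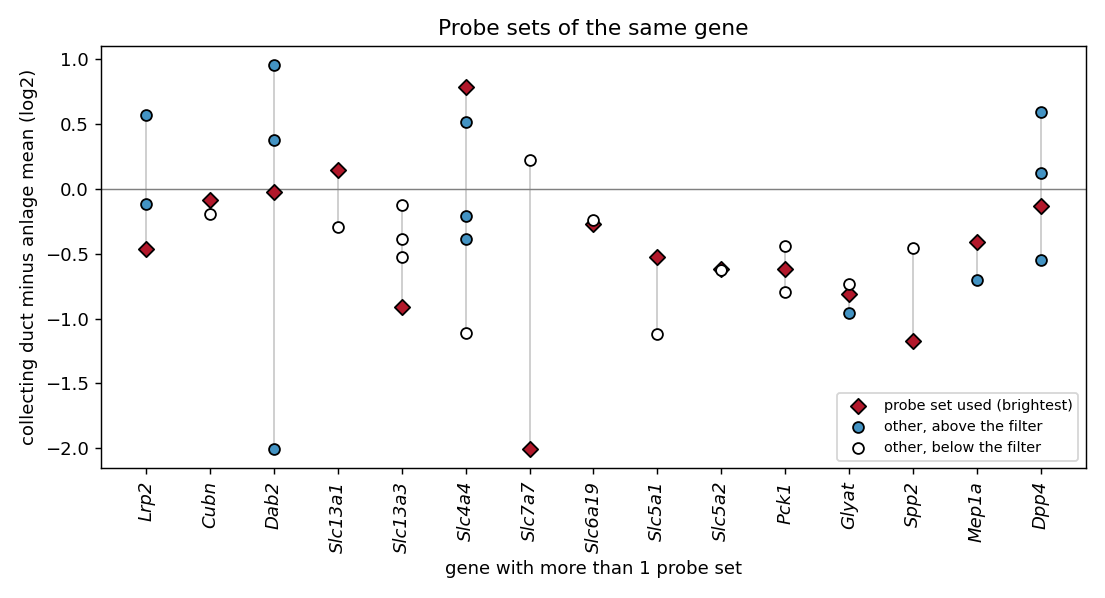
Collecting duct minus anlage mean (log2 scale) for every probe set taken for the 15 genes with more than 1. The probe set used is drawn as a diamond and dim probe sets as open circles. The points straddle 0 in 6 genes and are widest apart in Dab2, from −2.01 to 0.95, while the 3 probe sets of Glyat lie close together.

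Other genes of the proximal tubule, counted from lists chosen by role, were read against the 54.9% of all tested genes that had a lower collecting duct value, and 0 passed after adjustment in any list (adjusted p = 0.9999, limma). Of 8 transcription factors 4 were tested, and all 4 had a lower value. Hnf4a, which drives proximal tubule differentiation, stood at 10.45 in the collecting duct and at 11.06, 11.95 and 11.23 in the anlage (−0.96 ± 0.59, SE). The bZIP factor gene Maf differed by −1.85 ± 0.94 (−0.42 when its probe sets were averaged) and the bile acid receptor gene Nr1h4 by −1.27 ± 0.54. All 9 other tested transporters had lower values. The farthest were the water channel Aqp1 at −1.37 ± 0.75, the organic anion transporter Slc22a6 at −1.28 ± 0.58 and the aromatic amino acid transporter Slc16a10 at −1.06 ± 0.52. Transporters below the filter went both ways. Slc22a8 differed by 0.80, Slc6a20b by 0.12, Slc6a20a by 0.10, Slc5a11 by −0.16, Slc34a3 by −0.54 and Slc7a13 by −1.42. Among 13 other tested metabolic genes 10 had a lower value. The farthest were the acyl-CoA synthetase gene Acsm2 at −2.77 ± 1.03, the D-amino acid oxidase gene Dao at −1.66 ± 0.70 and the glycine cleavage gene Gldc at −1.44 ± 0.79. Of the metabolic genes below the filter, G6pc differed by 0.96, Cyp4a14 by 0.39, Hpd by −0.034 and Agxt2 by −0.21.

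Genes of the brush border and of the endocytic route that are shared with other epithelia were more mixed. Of 11 other brush border genes 7 had a lower value (63.6%, near the 54.9% of all tested genes). The sodium-proton exchanger gene Slc9a3, which is used by the thick ascending limb as well as the proximal tubule, stood at 8.60 in the collecting duct and at 13.36, 12.05 and 13.27 in the anlage (−4.29 ± 0.69, SE). Without anlage array 2 its adjusted p was 0.0137, with a difference of −4.45 (limma), and with the mean of all its probe sets the difference was −2.57. Pdzk1ip1, a partner of Pdzk1, stood at 14.96 in the collecting duct against 13.14, 12.94 and 12.99 in the anlage (1.94 ± 0.42), above all 3. The brush border cadherin Cdhr5 differed by −1.19 ± 0.49. Of 9 other endocytic and lysosomal genes 6 had a lower value (66.7%, also near that share), and the farthest were Ehd1 at 0.66 ± 0.80 (0.082 without anlage array 2), Rab38 at −0.55 ± 0.56 (−0.14 when its probe sets were averaged) and Ap2a1 at −0.49 ± 0.57.

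Markers of other cell types that a laser cut could have taken along also differed between the arrays. The counts below stand beside the 54.9% of all tested genes with a lower collecting duct value. All 5 tested endothelial markers had a lower collecting duct value, with list means of 8.69 in the collecting duct and 9.58, 10.85 and 10.57 in the anlage arrays, and Pecam1 was below the filter. Of 7 early nephron markers 6 had a lower value, with means of 11.69 in the collecting duct and 12.32, 12.75 and 12.06 in the anlage arrays. Of 4 tested cap mesenchyme markers 3 were lower (9.56 against 10.27, 10.87 and 9.70), and all 3 tested podocyte markers (10.41 against 10.58, 12.30 and 11.30). Both tested erythroid markers were also lower, with means of 10.65 in the collecting duct and 10.68, 11.66 and 10.82 in the anlage arrays. Below all 3 anlage arrays lay 4 of the 5 endothelial, 5 of the 7 early nephron and 2 of the 4 cap mesenchyme markers. Only 1 of the 3 podocyte and 1 of the 2 erythroid markers did so, and 24.3% of all tested genes. The proximal tubule genes that reached the filter had means of 9.35 in the collecting duct and 9.65, 10.01 and 9.62 in the anlage arrays. The part of these other cells in the differences was not tested.

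**Figure D4:**
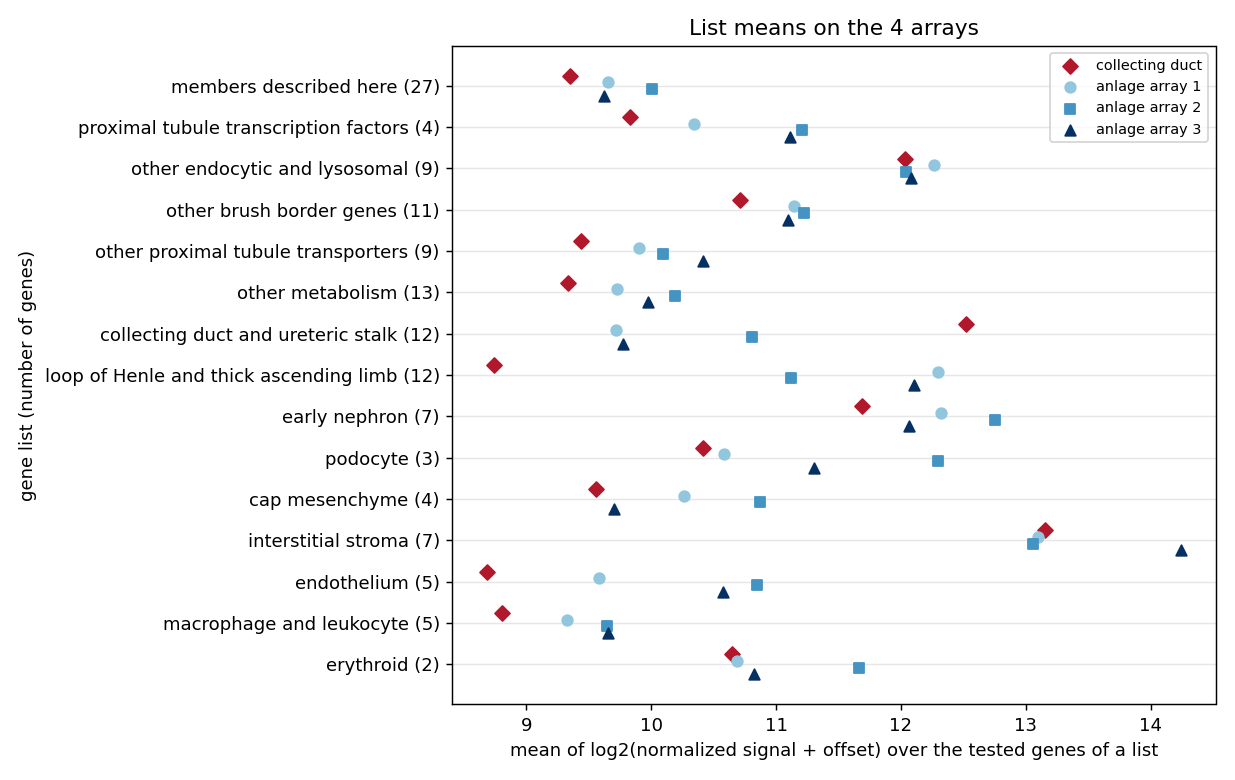
Mean of log2(normalized signal + offset) over the tested genes of each list (number in brackets), 1 point per array. The proximal tubule genes lie at 9.35 in the collecting duct and between 9.62 and 10.01 in the anlage, a small gap beside those of the collecting duct list (12.52 against 9.72 to 10.81) and of the loop of Henle list (8.74 against 11.12 to 12.30).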

How the data were processed

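Each array measured the RNA of 1 pool, and the deposited values are linear intensity values per probe set that the authors made with GCOS, as the submitters' processing notes name it, with no version or algorithm stated. The deposited values had the same mean (1500, after trimming 2% at each end) on all 4 arrays, while their medians ran from 206.9 to 526.5. The number of arrays limits the precision.

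The intensities were quantile normalized, and log2(signal + 109.6) was taken, the offset being the 25th percentile. After 64 control probe sets were left out, 34945 of 45037 probe sets had 1 gene symbol, 932 had several and 9160 had none in the platform table. Entrez numbers matched 34741 to the RefSeq gene table of GRCm38.p6, and 0 symbols changed. Probe sets without exactly 1 symbol were not used. The brightest probe set stood for a gene, and genes with a mean under 8.416, the 40th percentile, were not tested, which left 12642 of 18193 genes. limma 3.58.1 in R 4.3.3 (lmFit, then eBayes with trend, two-sided tests, Benjamini-Hochberg, threshold 0.05) compared the collecting duct array with the 3 anlage arrays. Its 2 residual degrees of freedom came from the anlage alone, and it assumes that the lone array varies alike. It was tested on simulated data, in which planted differences as large as those of the proximal tubule genes were not called. Every gene of the group is named, tested ones with each array's value, and up to 3 tested genes of each other list by the size of their difference. The other transporters and metabolic genes that missed the filter are named too. The genes and lists were chosen with earlier results of these data known. Alternatives were other normalizations, offsets, filters, probe set rules, no trend and leaving out each anlage array (probe sets kept).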

Additional observations from a re-analysis of the deposited data

How the results depend on the processing

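No alternative called any of the proximal tubule genes described here (11 alternatives), which says nothing about stability, since differences of this size could hardly be called in this design. The difference kept its sign under all 11 alternatives in 11 of the 27 tested genes, and in a further 9 under those in which they reached the filter. The median difference lay between −0.57 and −0.34 under alternatives using all arrays and between −0.62 and −0.21 without 1 anlage array. Scaling to a common median moved the median of all genes to −0.24, in place of −0.06, and that of the 27 genes to −0.57. With the filter at the 60th percentile 14 of 16 genes were lower, in place of 23 of 27. Without anlage array 1, 22 of 28 genes were lower (60.7% of all genes), without array 2 17 of 24 (51%) and without array 3 22 of 27 (52.3%). Across these settings between 0 and 14 genes were called over all genes. The 14 came without array 2. Signs turned in 7 genes. Without anlage array 1, 2 or 3 in turn the difference of Cubn lay between −0.15 (array 3) and 0.033 (array 1), of Dab2 between −0.71 (array 1) and 0.44 (array 3, and 0.13 without array 2), of Slc3a1 between −0.92 (array 1) and 0.081 (array 2), of Keg1 between −0.21 (array 1) and 0.55 (array 2), of Mep1b between −1.14 (array 3) and 0.49 (array 1, and 0.089 without array 2) and of Dpp4 between −0.29 (array 3) and 0.061 (array 1). With the deposited values it was 0.14 for Cubn and 0.029 for Mep1b, with a common median −0.0078 for Keg1, and averaging the probe sets −0.082 for Slc4a4 and 0.0060 for Dpp4. The cause was not tested. No paired analysis was possible because the groups share only replicate number 3. Without a second collecting duct array, its own spread is not known.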
